A study of Drosera capensis with 12 samples.

Results

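Traps of the Cape sundew, Drosera capensis, that had closed after glutathione (GSH) were set against their own mock traps, with 3 RNA sequencing libraries in each group, chosen by sample title. These are 6 of the 12 libraries of the study. GSH-closed traps had received 100 mM GSH on the petiole, the leaf stalk. GSH mock traps had received no small molecule. The other 6 libraries, used here as a side reading, came from traps that closed on living fruit flies and from unstimulated fly mock traps. One label of the fly-closed libraries names GSH as the agent, against their title, and the title was followed. No genotype, plant age, dose series or time after treatment is given in the sources used here, and whether replicates are separate plants is not stated either, so that p-values measure only the scatter among the libraries, which may be technical.

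Sundews are carnivorous plants whose leaves carry stalked tentacles tipped with sticky mucilage. Caught prey makes the tentacles and then the blade bend inward, and the closed leaf secretes digestive enzymes and takes up nutrients; jasmonate signalling is known to take part in this in sundews. GSH is a small peptide of glutamate, cysteine and glycine that buffers the redox state of plant cells, and in Arabidopsis it can act on glutamate receptor-like channels. The files do not pair the transcript features with gene names, so no pathway, enzyme or cell type marker could be looked up, the label of the tissue could not be checked against markers, and features are described by their level and their change.

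Values are in TPM, the abundance of a transcript feature as its part of the library's sum, set to 1e+06. Column sums of the deposited table ran from 17708252 to 20453079, a rescaled total, and the number of reads per feature cannot be read from it. Of 397048 features of the de novo assembly, 45503 reached 0.526 TPM in at least 3 of the 12 libraries and were tested with limma on log2(TPM + 1) after scaling between libraries. A change is the difference on that scale, GSH-closed minus GSH mock, and it understates the change of low features. In whole leaves, fewer cells of a type and less RNA per cell cannot be told apart.

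The largest rise in traps closed by GSH was far larger than the largest fall. Among features at 1 TPM or more in all 6 libraries, TRINITY_DN2786_c0_g1 had the largest rise. It stood at 765, 772 and 783 TPM in the GSH-closed libraries and at 2.62, 1.57 and 2.49 TPM in the GSH mock libraries. The closed libraries lay within a narrow band far above every mock library. The change was 8.30 ± 0.09 (SE) on the log2 scale, a 315-fold rise (limma, adjusted p = 8.14e-12). It was also measured with flies, at 126, 127 and 134 TPM in fly-closed traps, against 1.72, 1.54 and 1.74 TPM in fly mock traps, a change of 5.60 ± 0.09 (SE; limma, adjusted p = 2.23e-10). The change after GSH exceeded that after flies by 2.70 ± 0.12 (SE) on the log2 scale (limma test of the difference, adjusted p = 4.33e-07). Another 1 tested feature belongs to the same assembly component, and reads may have been split between the pair.

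The largest fall among such features was much smaller. TRINITY_DN7747_c0_g1 was at 4.82, 2.98 and 3.73 TPM in GSH-closed traps, against 98.9, 125 and 99.2 TPM in GSH mock traps, and the groups did not overlap. It fell by 4.12 on the log2 scale with an SE of 0.17 (limma, adjusted p = 2.35e-08). With flies it was at 53.9, 55.1 and 53.2 TPM in fly-closed traps, against 92.7, 90.6 and 101 TPM in fly mock traps, a change of -0.79 ± 0.17 (SE; limma, adjusted p = 0.0175). The mock groups of both experiments were at similar levels of this feature, while the GSH-closed libraries were far below the fly-closed ones. The difference between the changes was -3.33 ± 0.23 (SE; limma, adjusted p = 6.47e-06).

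**Figure D1:**
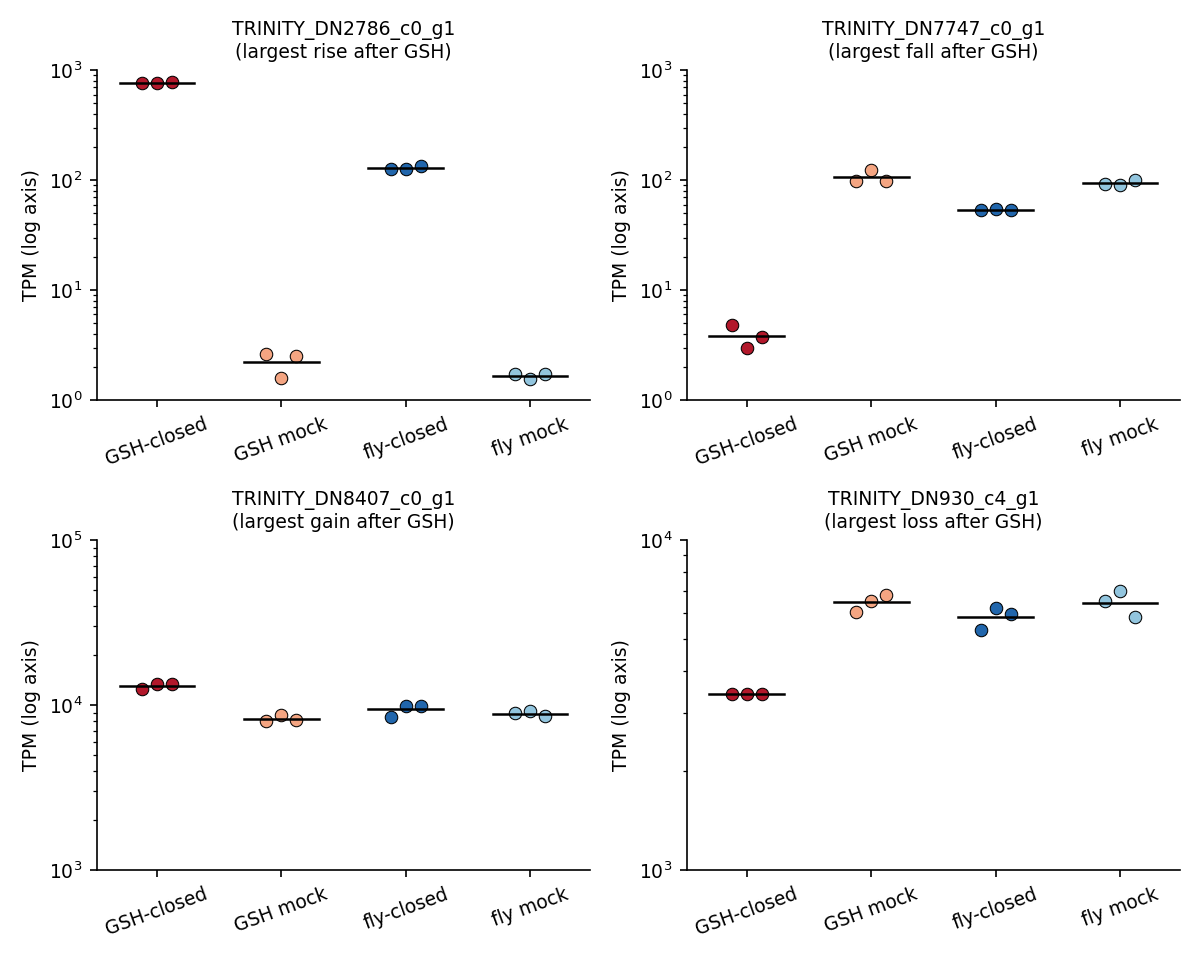
TPM of the 4 named features in every library (log axes), with GSH-closed, GSH mock, fly-closed and fly mock libraries from left to right; each point is a library and each line a group mean. TRINITY_DN2786_c0_g1 was between 765 and 783 TPM in GSH-closed traps and below 2.7 TPM in GSH mock traps, and TRINITY_DN7747_c0_g1 was below 4.9 TPM in GSH-closed traps alone.

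Among called features whose groups do not overlap in TPM, the largest gain and the largest loss of mean TPM belonged to features that were already among the most abundant. TRINITY_DN8407_c0_g1 was at 12428, 13332 and 13344 TPM in GSH-closed traps, against 7999, 8751 and 8093 TPM in GSH mock traps, a gain of 4753 TPM in the mean. Its change was 1.09 ± 0.08 (SE) on the log2 scale after scaling (limma, adjusted p = 2.19e-06), and without scaling 0.65. In mean TPM the GSH-closed traps stood at 1.57 times the level of GSH mock traps. It was at 8502, 9916 and 9901 TPM in fly-closed traps, against 8929, 9167 and 8532 TPM in fly mock traps, where the groups overlapped (limma, adjusted p = 0.718). The change after GSH exceeded that after flies by 0.99 ± 0.11 (SE; limma test of the difference, adjusted p = 0.000149). Without scaling this excess was 0.57 (limma, adjusted p = 0.0015).

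TRINITY_DN930_c4_g1 had the largest loss among these called features, and its mean TPM fell by 3059.8. It was at 3416, 3423 and 3410.0 TPM in GSH-closed traps, against 6062, 6533 and 6833 TPM in GSH mock traps. All closed libraries were lower, and they differed from each other by far less than the mock libraries did. The change was -0.49 ± 0.08 (SE) after scaling (limma, adjusted p = 0.000797), and without scaling -0.92. In the fly experiment it was at 5332, 6212 and 5963 TPM in fly-closed traps, against 6544, 6986 and 5857 TPM in fly mock traps (limma, adjusted p = 0.512). The test of the difference between the responses gave -0.35 ± 0.11 (SE; limma, adjusted p = 0.0577).

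The features at ranks 2 and 3 by gain started from very different levels in the mock groups of the 2 experiments. The feature at rank 2 was at 4191, 4247 and 4291 TPM in GSH-closed traps, against 942, 854 and 920 TPM in GSH mock traps, a change of 2.66 ± 0.07 (SE; limma, adjusted p = 1.57e-09). It was at 49.4, 57.8 and 51.6 TPM in fly-closed traps, against 19.3, 14.8 and 16.6 TPM in fly mock traps. That is a change of 1.60 after flies (limma, adjusted p = 3.69e-07), smaller than after GSH (limma test of the difference, adjusted p = 6.96e-05). The feature at rank 3 was at 3662, 3699 and 3418 TPM in GSH-closed traps, against 981, 918 and 964 TPM in GSH mock traps, a change of 2.34 ± 0.07 (SE; limma, adjusted p = 1.63e-09). It was at 87.7, 95.8 and 99.3 TPM in fly-closed traps, against 18.0, 15.0 and 17.0 TPM in fly mock traps. Its change after flies was 2.44 (limma, adjusted p = 9.23e-09). The responses at rank 3 were not called different (limma test of the difference, adjusted p = 0.600). Both features were thus higher in resting traps of the GSH experiment than in traps that had closed on flies. GSH mock exceeded fly mock by 5.52 on the log2 scale at rank 2 (limma, adjusted p = 1.31e-10) and by 5.62 at rank 3 (adjusted p = 6.62e-11).

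Across all tested features, rises reached larger sizes than falls. GSH-closed and GSH mock traps differed in 25.8% of features by limma at an adjusted p below 0.05, 14.7% higher and 11.1% lower. By comparison, the resting traps of the 2 experiments differed from each other in 9.44% of features. Among the calls, the classes below 2-fold held 2534 rises and 4072 falls. From 2-fold to below 4-fold there were 2357 rises and 849 falls, which turned to 1646 rises and 2715 falls without scaling between libraries. From 4-fold to below 8-fold there were 963 rises and 92 falls, and from 32-fold to below 64-fold 97 rises and 1 fall, all on TPM + 1; without scaling these were 762 against 204 and 69 against 2. A feature cannot fall further than to 0 TPM, which bounds the falls of low features on this scale.

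**Figure D2:**
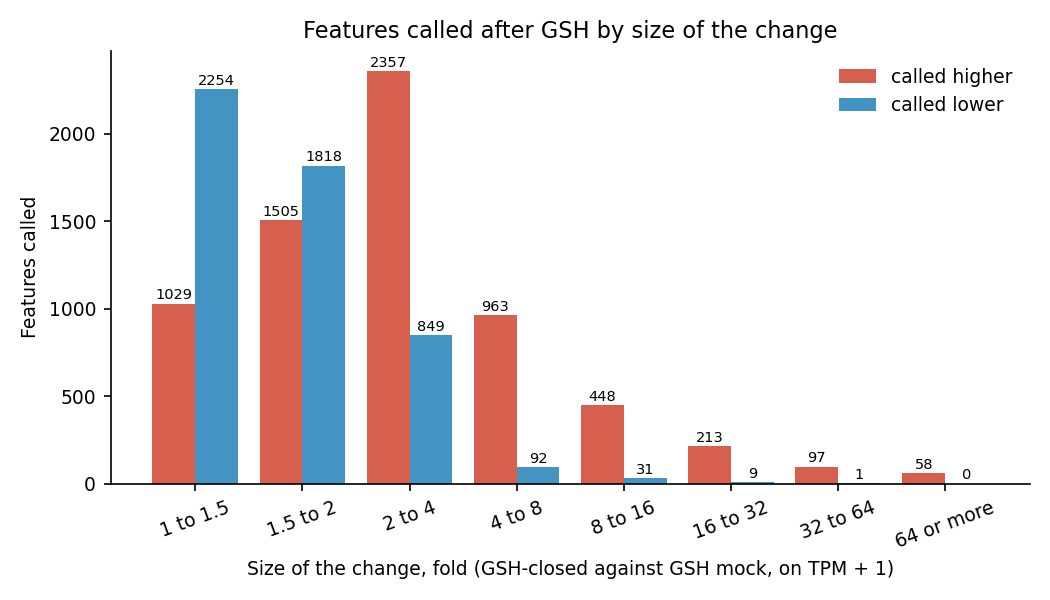
Number of features called higher (red, left bar) and lower (blue, right bar) in GSH-closed against GSH mock traps, by the size of the fitted change in fold of TPM + 1. Falls outnumber rises below 2-fold, with 2254 falls and 1029 rises below 1.5-fold, and rises outnumber falls in every class from 2-fold up; without scaling the class of 2 to 4 held more falls, 2715, than rises, 1646.

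A stricter test asked which changes are shown to exceed 2-fold, with limma's treat method at an adjusted p below 0.05. It called 2129 rises, 4.68% of tested features, and 109 falls, 0.24%. The estimate alone had been at 2-fold or more in 4136 called rises and 982 called falls. In each of the 2129 rises and 109 falls the groups did not overlap in TPM, where over all tested features the closed libraries lay above every mock library in 12.5% and below every mock library in 31.8%. The calls rest on the same libraries, which favours this separation. The 2129 rises had a median of 2.56 on the log2 scale and the 109 falls one of -1.78. In the other direction, the 95% interval of the change lay within 2-fold for 22042 features, 1446 of them called higher and 2886 called lower. Another 16069 features were neither called nor bounded in this way.

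By mean level over the 6 libraries, rises past 2-fold outnumbered falls past 2-fold among abundant features too. Of the 1302 features with a mean of 100 to below 1000 TPM, 527 rose (40.5%) and 230 fell (17.7%), and 273 rises and 4 falls were shown to exceed 2-fold. Without scaling between libraries these were 388 rises and 656 falls, with 224 rises and 28 falls past 2-fold. Of the 71 features with a mean of 1000 TPM or more, 42 rose and 14 fell; limma's treat called 8 rises and 0 falls past 2-fold, with 1 fall at an unadjusted p below 0.05. Without scaling these were 32 rises and 22 falls, with 7 rises and 4 falls past 2-fold. The mean includes the closed libraries, so a feature low in the mock can enter a class through its high level after GSH: 33 of the 273 had a mock mean under 10 TPM.

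**Figure D3:**
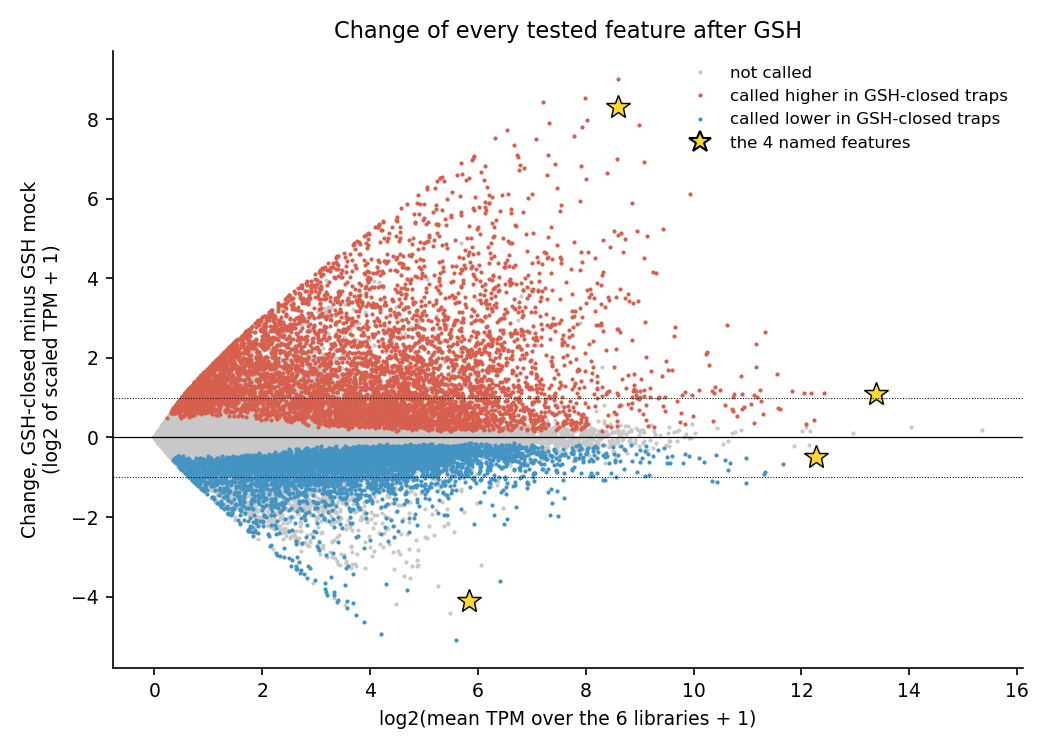
Change of each of the 45503 tested features (GSH-closed minus GSH mock, log2 of scaled TPM + 1) against log2(mean TPM + 1) over the 6 libraries; red points were called higher, blue points lower and grey points not called, and stars mark the 4 named features. Dotted lines mark 2-fold. Many rises lie above 4 on the log2 scale, whereas few falls pass -2.

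Which direction was more common depended on the scaling between libraries. Scaling factors were 0.820 to 0.865 in GSH-closed libraries and 1.04 to 1.21 in GSH mock libraries, and without scaling the median change of all features was -0.27 in place of -0.01. The calls were then 36.2% of features, 4684 higher and 11790 lower, so that 28.4% of the calls were higher in place of 56.9%. Of the 6670 features called higher, 4673 (70.1%) were called higher without scaling too, 51 were called lower, and 502 had a lower mean TPM in GSH-closed traps than in GSH mock traps. All 5054 features called lower were also called lower without scaling. Leaving out scaling moves the changes down, which favours that agreement. Each of the 2129 rises past 2-fold was called higher without scaling, and 1553 were past 2-fold there. Over all 14 other settings tried, 3654 of the features called higher and 2964 of those called lower were called the same way each time.

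**Figure D4:**
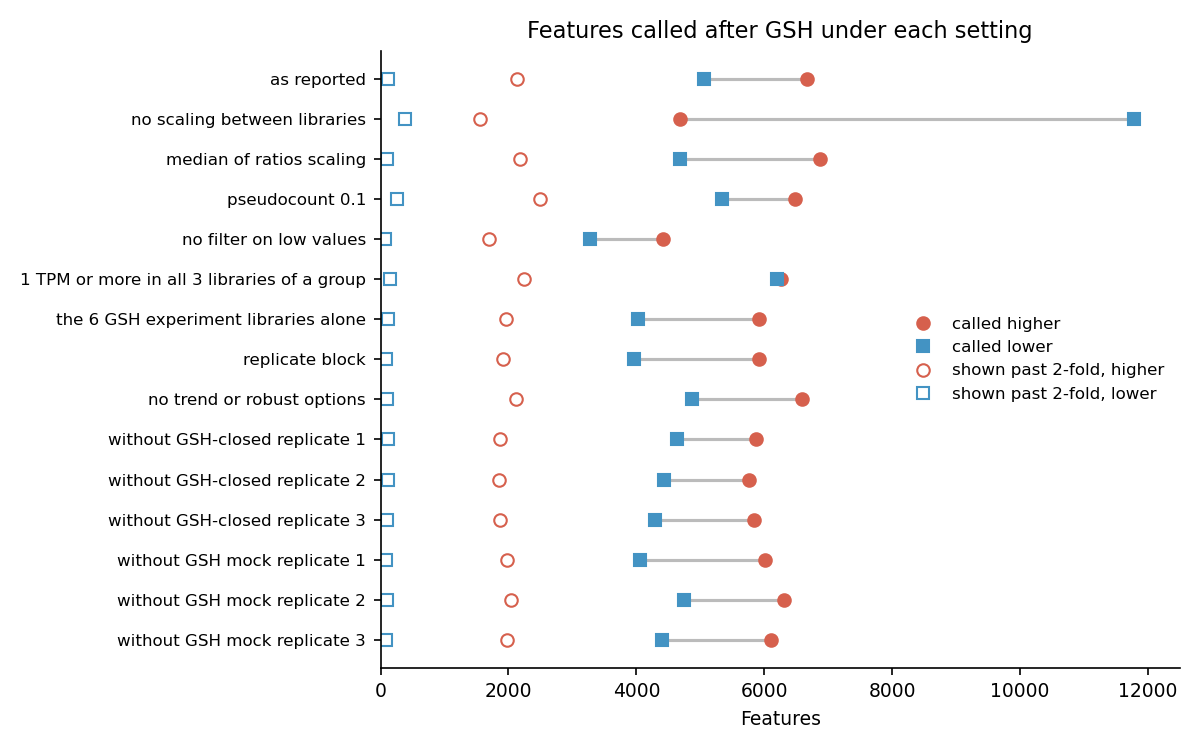
Features called higher (filled circles) and lower (filled squares) in GSH-closed against GSH mock traps, and those shown to exceed 2-fold (open symbols), as reported in the top row and under 14 other settings below it. Leaving out scaling moves the falls to 11790, while rises past 2-fold outnumber falls past 2-fold in every row.

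The set of most abundant features turned over after GSH. Each pair of GSH-closed libraries shared 96 to 98 of its 100 most abundant features, and each pair of GSH mock libraries shared 94 to 96. A GSH-closed and a GSH mock library shared 67 to 71. In the fly experiment a fly-closed and a fly mock library shared 93 or 94. A GSH mock and a fly mock library shared 75 to 78, so that resting traps of different experiments were nearer to each other in this respect than GSH-closed traps were to their mock. This ranking uses TPM within a library and does not depend on scaling.

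**Figure D5:**
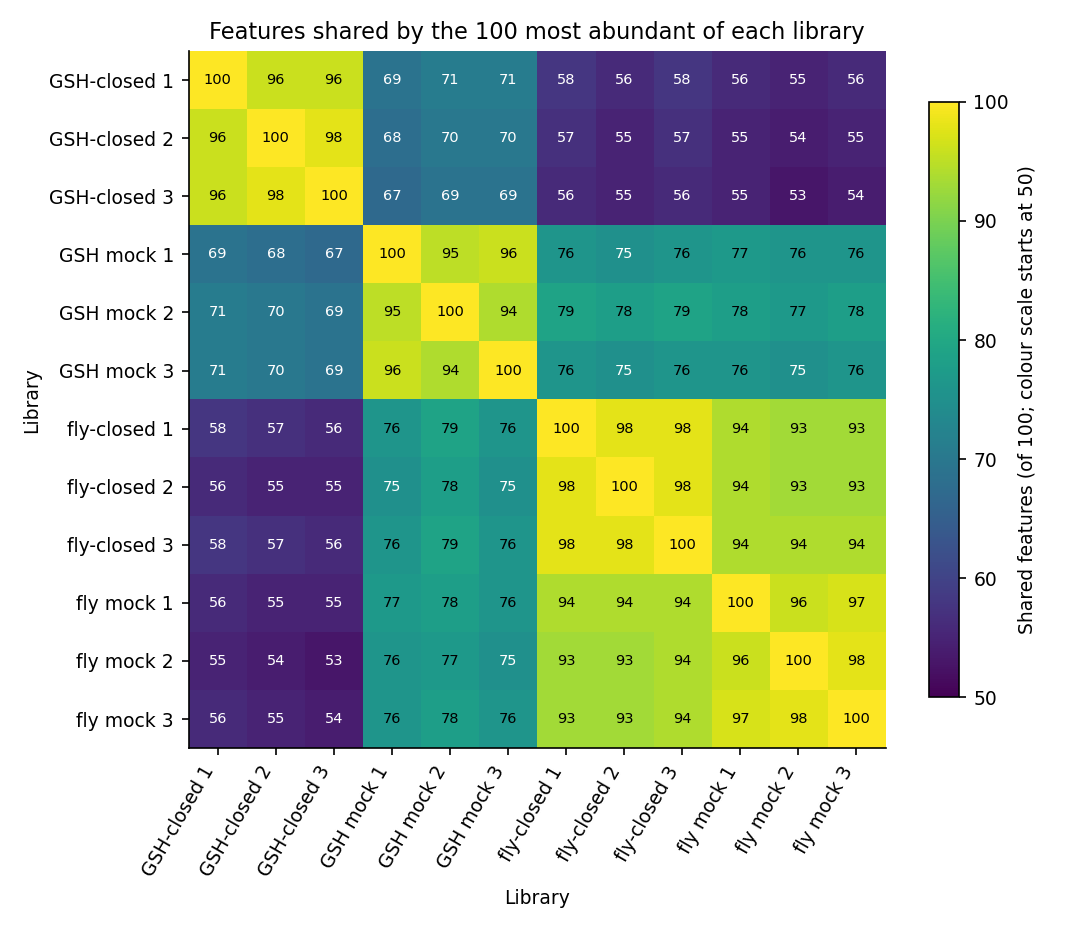
Number of features shared by the 100 most abundant features of each pair of libraries, in the order GSH-closed, GSH mock, fly-closed and fly mock on both axes; the colour scale starts at 50. Values between GSH-closed and GSH mock libraries are 67 to 71, whereas those between fly-closed and fly mock libraries are 93 or 94.

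The abundant features of resting traps were also followed by choosing them in libraries outside this comparison. Of the 100 features with the highest mean TPM in fly mock traps, 28 were higher and 31 lower after GSH. Together these are 59.0%, against 25.8% of all features, and calls grow more frequent with abundance. Their changes were modest, from -1.14 to 1.78 on the log2 scale with a median of 0.05, and 2 of the rises were shown to exceed 2-fold. The 100 features held 21.8% ± 0.384 of TPM in GSH-closed traps and 24.4% ± 1.81 in GSH mock traps (SD, n = 3 each). Without scaling 18 were higher and 58 lower, where over all features 10.3% were higher and 25.9% lower. The most abundant feature of fly mock traps was at 39363, 35410 and 39202 TPM in GSH-closed traps, against 43045, 52698 and 39816 TPM in GSH mock traps. Its mean TPM was lower in GSH-closed traps, with a difference of -7195 TPM and groups that do not overlap, but after scaling its change was 0.19 ± 0.13 (SE) and it was not called (limma, adjusted p = 0.343).

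Of 9 measures taken once per library, 3 did not overlap between the groups. The 1000 most abundant features of a library held 51.4% ± 0.631 of TPM in GSH-closed traps and 48.7% ± 1.56 in GSH mock traps (SD, n = 3 each). The 100 most abundant held 26.2% ± 0.386 in GSH-closed traps and 25.7% ± 1.82 in GSH mock traps, where GSH mock replicate 2 lay above every closed library. More features reached 100 TPM in GSH-closed traps, 1451 ± 13.1 against 1345 ± 63.4 in GSH mock traps, and fewer reached 10 TPM, 13450 ± 245 in GSH-closed traps against 14736 ± 207 in GSH mock traps. Both counts use TPM without scaling between libraries and were not repeated after scaling. Scaling raises values in GSH-closed libraries and lowers them in GSH mock libraries, which works against the difference at 10 TPM. The groups did not overlap for the top 1000 or for either of these counts, with a two-sided exact permutation p of 0.1 for each, the smallest that 3 against 3 libraries allow. It was 0.7 for the top 100. Features above 0 numbered 61751 ± 1203 in GSH-closed traps and 60796 ± 945 in GSH mock traps (exact permutation p = 0.5). The p-values were not adjusted over the 9 measures, since none can pass 0.05.

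Some features were near 0 in one state and well above it in the other. In 130 features every GSH mock library was under 1 TPM and every GSH-closed library at 10 TPM or more, and 38 of these were listed at 0 in all 3 GSH mock libraries. Their mean in GSH-closed traps ranged from 11.1 to 317 TPM with a median of 24.2, and 6 were at 100 TPM or more in each closed library. The most abundant of them was at 344, 327 and 280 TPM in GSH-closed traps, against 0.820, 0.630 and 0.510 TPM in GSH mock traps. It had 78.0, 77.0 and 84.5 TPM in fly-closed traps, against 0.30, 0.43 and 0.37 TPM in fly mock traps. The second was at 253, 284 and 341 TPM in GSH-closed traps, while all GSH mock libraries listed it at 0. It was at 95.7, 171 and 193 TPM in fly-closed traps, and at 0, 3.53 and 7.25 TPM in fly mock traps.

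The fly libraries did not enter the choice of these 130 features. The fly calls do use a spread estimated over all 12 libraries. That spread includes the GSH libraries of the choice, which can favour a call. In the fly experiment 92 of the 130 (70.8%) were called higher in fly-closed than in fly mock traps, against 4.77% of all tested features. Their changes had a median of 2.20 on the log2 scale after flies, and of 4.68 after GSH, where the choice fixes it. In fly mock traps 96 of the 130 were also under 1 TPM in all 3 libraries, and in fly-closed traps 34 were at 10 TPM or more in all 3.

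The reverse was rare and less steady. Only 12 features were under 1 TPM in every GSH-closed library and at 10 TPM or more in every GSH mock library, with means of 10.99 to 34.9 TPM in the mock. All 12 were listed at 0 in all 3 GSH-closed libraries, and limma called 9 of them lower. Of the 12, 1 was called lower after flies, against 0.796% of all tested features, and 4 were above 0 in all 3 fly mock libraries. Within a group, features also came and went between libraries. In GSH-closed libraries 1317 to 1491 features were at 10 TPM or more in 1 library and under 1 TPM in both others, and in GSH mock libraries 887 to 1775, highest in replicate 2.

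Summing TPM over the sister features of an assembly component, so that reads divided between them count once, gave a similar share of calls. Of 34695 components tested, 8361 (24.1%) were called by limma, 4638 higher and 3723 lower. The 130 features lie in 124 components, of which 121 were called higher as a sum. Each sum holds a feature chosen for its change in these same libraries, which favours that call. Of these components 67 have a sister feature above 0 in the GSH experiment, and 64 of the 67 were called higher. In 69 of the 124 the sum was itself under 1 TPM in every GSH mock library and at 10 TPM or more in every GSH-closed library. The 12 lie in 12 components, of which 8 were called lower, and of the 7 with a sister feature above 0 in these libraries 3 were called lower.

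Called sister features shared a direction in more components than not. Of 1467 components with 2 or more called features, 599 held rises only, 299 falls only and 569 (38.8%) both. Among all called features 56.9% were higher, so called features taken at random would often differ in direction too. Without scaling, 786 of 2266 such components held both. In 9 components one feature was shown to rise and another to fall by more than 2-fold. In the one with the widest spread between sisters, the rising feature was less even between libraries. It was at 82.9, 94.1 and 54.1 TPM in GSH-closed traps, against 4.80, 0 and 0 TPM in GSH mock traps. In the one with the second widest spread, the rising feature was at 413, 420 and 429 TPM in GSH-closed traps, against 20.02, 15.5 and 18.2 TPM in GSH mock traps (limma change 4.91 ± 0.06, SE; adjusted p = 8.14e-12). The falling sister was at 16.5, 16.1 and 16.1 TPM in GSH-closed traps, against 106, 98.2 and 107 TPM in GSH mock traps (limma change -2.18 ± 0.05, SE; adjusted p = 6.68e-10). All libraries of a group agreed closely for both features of this pair, and the groups were far apart in opposite directions. The sum of this component was called higher, with a change of 2.23 ± 0.04 (limma, SE). In the fly experiment the rising feature had 298, 334 and 335 TPM in fly-closed traps against 29.7, 29.4 and 28.2 TPM in fly mock traps, while the falling sister had 36.1, 35.4 and 37.7 TPM in fly-closed traps against 54.1, 55.1 and 54.8 TPM in fly mock traps. Whether sisters are copies, variants or fragments of one gene was not examined.

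The large rises after GSH were set beside the fly experiment once more. Of the 2129 features shown to rise by more than 2-fold after GSH, 1108 (52.0%) were higher after flies, against 4.77% of all tested features, and 9 were lower. The median of their changes after flies was 0.67 (log2). Of the 109 that fell by more than 2-fold, 20 (18.3%) were lower after flies, against 0.796% of all features. The GSH and fly calls share the same estimate of spread for each feature. Features with little scatter are thus favoured in both, which can raise these shares. By the limma test of the difference the GSH change went beyond the fly change for 1888 of the 2129 and for 106 of the 109, where 15.1% of all features differed in either direction. Selection by the size of the change after GSH favours that outcome.

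The scatter between replicates was of similar size in both groups. Over 13213 features with a mean of 10 TPM or more in the 6 libraries, the median SD of log2 values was 0.11 among GSH-closed libraries and 0.15 among GSH mock libraries. The SD was larger among GSH-closed libraries in 42.2% of these features.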

How the data were processed

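Total RNA of leaf traps was sequenced, and libraries were made with an Illumina RNA kit, per the labels' protocols. The submitters' processing notes name cutadapt, Trimmomatic, RSEM and DESeq2 version 1.16.1 with no role or order. The deposited values are a rescaled signal and not counts: below 60, 100% of each library's nonzero entries were whole steps of its column sum over 1e+08, within 0.03 of a step. They were taken as TPM multiplied by a library total; correction for length was not checked. Reads shared between sister features may have been divided.

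From these values TPM was computed and features at 0.526 TPM (10 in deposited units in the median library) or more in at least 3 of 12 libraries were kept. A trimmed mean of log ratios scaled the libraries (30% of ratios and 5% of abundances trimmed at each end). The log2 values of scaled TPM plus 1 entered limma 3.58.1 in R 4.3.3, in one model of 4 groups with 8 residual degrees of freedom and the trend and robust options. Calls have a Benjamini-Hochberg adjusted p below 0.05 over all features tested; treat used a minimum of 2-fold. Single values per library were compared by exact permutation. The calculation was tested on simulated data in which few features changed, with as many rises as falls. The scaling was therefore not tested under uneven changes such as those called here. The named features are, among called features whose groups do not overlap in TPM, those with the largest rise and fall at 1 TPM or more in all 6 libraries, and those with the largest gain and loss of mean TPM. The comparison, the tests and the classes were chosen with earlier results of these data known. Features described by rank, the sister pair and the abundance classes were chosen after their values were seen. No sequence and no reference genome was used here.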

Additional observations from a re-analysis of the deposited data

Results flagged for a closer look

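For 3 of the 4 named features the change after GSH differed from the change after flies by limma's test of the difference. TRINITY_DN2786_c0_g1 had a change larger by 2.70 (log2) after GSH (adjusted p = 4.33e-07), with higher TPM in 3 of 3 closed libraries than in every mock library in both experiments. TRINITY_DN7747_c0_g1 differed by -3.33 (adjusted p = 6.47e-06), with all closed libraries below their mock in both experiments. TRINITY_DN8407_c0_g1 differed by 0.99 (adjusted p = 0.000149), with 3 of 3 libraries higher after GSH and overlapping groups after flies. These features were chosen for their change after GSH, which favours such a difference. Groups of 3 libraries are too small for a search for single outlying libraries.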

How the results depend on the processing

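Alternatives covered the scaling, the pseudocount, the filter, the variance options, the libraries in the fit, a replicate block and leaving out each of the 6 libraries. Without a filter 7695 features were called, 4417 higher and 3278 lower, and 5201 components. Without scaling 11790 features were lower. Leaving out 1 library gave 10061 to 11055 features, 5759 to 6312 higher and 4054 to 4743 lower, 7056 to 7772 components, and 1957 to 2133 features past 2-fold; over all settings the last ranged from 1762 to 2758. The share of abundant fly mock features called ranged from 50.1% to 76.0%, and from 56.0% to 72.0% with a library left out. The changes of the 4 named features kept their direction and call in all 14 settings.

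The 130 features under 1 TPM in every GSH mock library and at 10 TPM or more in every GSH-closed library were 110 to 166 under other TPM limits or without a library. The 12 of the reverse were 28 with limits of 0.5 and 5 TPM, 2 with limits of 2 and 20 TPM, and 18 to 36 with a library left out (24 without GSH-closed replicate 1, 30 without GSH-closed replicate 2, 31 without GSH mock replicate 1 or 3, 36 without GSH mock replicate 2), since fewer libraries must meet the limits. The top 100 features' share of TPM, 0.488 percentage points higher in GSH-closed traps, became -0.664 for the top 10 and ran from -0.130 to 1.53 with a library left out, negative without GSH mock replicate 3. The excess of 954 detected features became -102 at 1 TPM and -1287 at 10 TPM, both without scaling, and ran from 286 to 1452 with a library left out. The difference between the responses for TRINITY_DN930_c4_g1 passed the threshold without scaling (-0.77, adjusted p = 0.000573), with 1 TPM required in all 3 libraries of a group (-0.39, adjusted p = 0.026) and without GSH mock replicate 1 (-0.41, adjusted p = 0.0313); over all settings its adjusted p ran from 0.000573 to 0.151, and with a library left out it was -0.41 to -0.28. The cause of these shifts was not tested.

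Titles give the groups the same replicate numbers, but deviations of same-numbered libraries correlated at only 0.0129, 0.0075 and 0.0082 (Pearson's r across features). For libraries with different numbers r ran from -0.0339 to 0.0266. Whether the samples were collected in pairs cannot be told from these values. The replicate block gave 9892 calls, 5926 higher and 3966 lower. How many reads stand behind a value is unknown, and 10 TPM may be few.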
